A study of Mus musculus with 16 samples.

Results

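White adipose tissue of wild-type mice fed a high fat diet was compared directly with that of Sirt1 knockout mice fed a low fat diet, on 4 microarrays each, 8 of the 16 in the series. The 4 arrays of each group were taken by the genotype and diet in their labels. The wild-type mice carried no Cre transgene. The knockout mice carried FABP4-Cre, in which the Fabp4 promoter (of a fatty acid binding protein of adipocytes) drives Cre, and their labels call the Sirt1 deletion adipocyte-specific. The other 8 arrays came from knockout mice on the high fat diet and from wild-type mice on the low fat diet, 4 each. All mice were C57BL6/J and 12 weeks old, and had eaten their diet for 8 weeks from 4 weeks of age. Nothing in the labels states the fat depot, the sex, or whether each array is a separate mouse, so the p-values reflect the variation among these samples, which may be technical. A control with Cre and intact Sirt1 was not part of the design. The 2 groups compared differ in diet, in Sirt1 and in the transgene at once, and these cannot be told apart in a single difference. The question is what the diet does that loss of Sirt1 on a low fat diet does not. In the fitted model the wild-type low fat mean cancels, and the difference equals the diet effect in wild type minus the knockout effect on the low fat diet. A called gene may therefore differ from wild-type low fat fat in both groups, in the same direction and by different amounts.

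SIRT1 is an NAD-dependent deacetylase that acts on transcription factors and co-factors of fat cells, among them PPARgamma and PGC-1alpha. White fat stores triglyceride, and it can hold thermogenic beige adipocytes that burn fuel through the uncoupling protein UCP1. Prolonged high fat feeding enlarges adipocytes, lowers their own fatty acid synthesis, and brings macrophages, dividing cells and matrix remodelling into the tissue.

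Expression values are log2 per gene, with 1 probe set for each gene, and a difference of 1 on this scale is 2-fold. Each difference is the mean of the 4 wild-type high fat arrays minus the mean of the 4 knockout low fat arrays. It is given with its standard error (SE) or 95% confidence interval. Tests are limma's, with p-values adjusted by Benjamini-Hochberg over 12078 genes. A gene is called at an adjusted p under 0.05. Levels of different genes are not compared, since probe sets differ in brightness.

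The arrays of a group correlated at 0.985 to 0.996 in wild-type high fat fat and at 0.989 to 0.996 in knockout low fat fat, against 0.98 to 0.994 between these groups. Skeletal muscle transcripts varied within both groups: Tnnt3, a fast muscle troponin gene, was at 6.65, 3.40, 8.86 and 7.95 in wild-type high fat replicates 1 to 4, against 7.37, 10.19, 4.86 and 3.73 in knockout low fat replicates 1 to 4. Of 21 muscle transcripts tested with limma, 0 were called, and 0 had an unadjusted p under 0.05. Their mean level per array ran between 4.74 and 7.24 in wild-type high fat fat, against 4.84 and 8.29 in knockout low fat fat. Over all 16 arrays, 5 had Tnnt3 at 8 or more, and counts are also given without them. Of the defining adipocyte genes, Adipoq, which encodes adiponectin, was at 13.43, 13.55, 13.63 and 13.51 in wild-type high fat fat and at 13.48, 13.55, 13.60 and 13.62 in knockout low fat fat, high in all 8 arrays.

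The targeted gene was examined first. Sirt1, on chromosome 10, was at 8.85, 9.10, 9.08 and 8.85 in wild-type high fat fat, against 9.37, 9.21, 9.44 and 8.94 in knockout low fat fat. The groups overlapped, and the difference of -0.27 (95% confidence interval -0.66 to 0.11, limma adjusted p = 0.436) lay on the side opposite to lower Sirt1 RNA in the knockout. It had 1 probe set, and the labels do not say whether that set lies within the deleted exons, so the signal does not check the genotypes.

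Of the 12078 genes, 519 (4.3%) were called, 270 (2.24%) higher and 249 (2.06%) lower in wild-type high fat fat than in knockout low fat fat. At least 2-fold differences made up 101 of the higher genes (0.836% of those tested) and 70 of the lower (0.58%). In 482 of the 519, all arrays of one group lay above all of the other, as they did in 1757 (14.5%) of all genes. The smallest absolute difference called was 0.335, and the median was 0.841. The count moved with the arrays used: with 1 array left out it was 677, 189, 329 and 220 without wild-type high fat replicates 1 to 4, against 360, 499, 180 and 269 without knockout low fat replicates 1 to 4. An unadjusted p under 0.05 was reached by 2380 of the 12078 genes (19.7%). Of the 519, 17 would not have passed the filter on low values (log2 4 in at least 4 of the 16 arrays) without the arrays of the group where they were higher. Dio2, Elovl3, Cx3cr1 and Gstm6, described with their lists, are among these, and their calls support nothing here. The count of calls was 237 (146 higher, 91 lower) without the 5 arrays with muscle transcripts. The plot of the largest differences shows their values array by array.

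**Figure D1:**
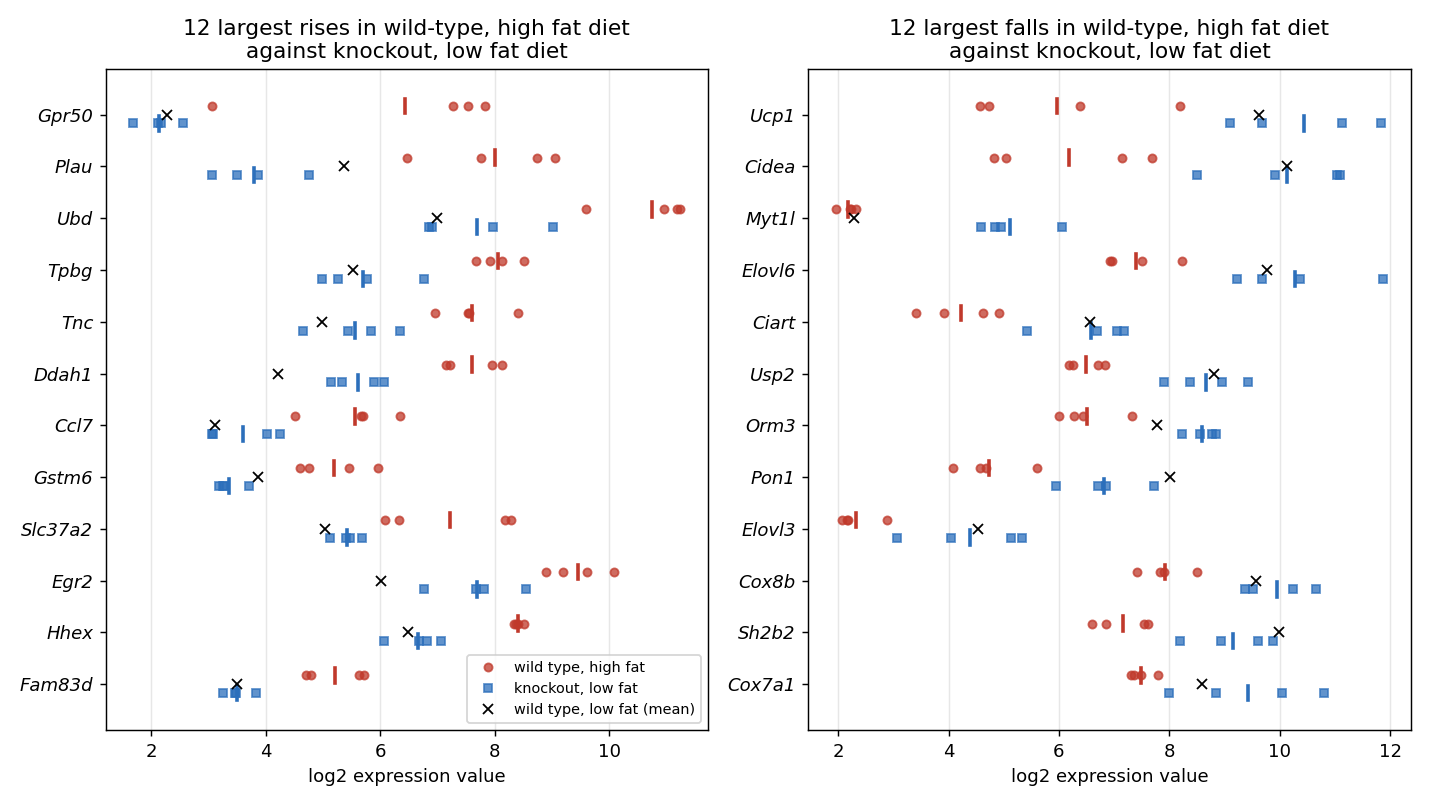
Log2 expression value (x axis) of the 12 genes with the largest rise (left) and the 12 with the largest fall (right) in wild-type high fat fat against knockout low fat fat, among called genes whose groups do not overlap. Red circles are the 4 wild-type high fat arrays, blue squares the 4 knockout low fat arrays, short bars their means and crosses the wild-type low fat mean. For Myt1l the cross lies with the red points, whereas for Ucp1, Cidea and Ciart it lies with the blue ones.

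Brown and beige fat genes included the largest falls of all genes tested, those of Ucp1 and Cidea. Of 11 tested, 7 were called lower in wild-type high fat fat and 0 higher. This count includes Dio2 and Elovl3. Apart from these 5 of 9 were lower, against 2.06% lower among all genes, and the median difference was -1.71, against -0.00225 over all genes. With no filter on low values the list had 6 lower genes. Ucp1, the uncoupling protein that turns fuel into heat, was at 8.19, 4.74, 4.57 and 6.37 in wild-type high fat fat, against 9.10, 9.68, 11.12 and 11.84 in knockout low fat fat. The groups did not overlap, wild-type high fat replicate 1 was the nearest to the knockout arrays, and knockout replicates 3 and 4 were the highest (difference -4.47, SE 0.81, limma adjusted p = 0.00777). Cidea, which enlarges lipid droplets and is abundant in brown fat, again had its highest wild-type value in replicate 1, with 7.68, 4.83, 5.04 and 7.15 in wild-type high fat fat against 8.50, 9.91, 11.03 and 11.09 in knockout low fat fat (difference -3.96, SE 0.66, adjusted p = 0.0046). Cox8b, a cytochrome oxidase subunit of brown fat and muscle, fell by 2.03 on the log2 scale (SE 0.34, adjusted p = 0.00434). These 3 calls held when each of the 16 arrays was left out in turn. In the wild-type low fat group Ucp1 averaged 9.62 (SD 1.22), Cidea 10.12 (SD 0.78) and Cox8b 9.57 (SD 0.68), so that the knockout on the same diet differed from it by 0.82, 0.01 and 0.38, none past the threshold.

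Other thermogenic genes had a different arrangement of the 4 groups. Dio2, the deiodinase that makes active thyroid hormone inside brown adipocytes, was at 3.22, 3.19, 2.88 and 3.61 in wild-type high fat fat, against 4.12, 4.70, 5.40 and 6.32 in knockout low fat fat. No array of the first group reached a level of 4, and the other groups were as low, with means of 3.46 in knockout high fat fat and 3.24 in wild-type low fat fat. Its difference was -1.91, or -1.14 with values under 4 set to 4. It passed the filter on low values through the 4 knockout low fat arrays alone, so no test is given, and it could not be fitted when one of these was left out. Otop1, a proton channel gene of brown fat, was at 7.28, 7.02, 7.53 and 7.25 in wild-type high fat fat and at 8.28, 8.37, 9.77 and 9.47 in knockout low fat fat. Both knockout groups were high for Otop1, with 8.87 (SD 0.18) in knockout high fat fat and 7.25 (SD 0.91) in wild-type low fat fat as the means of the other 2 groups (difference -1.71, SE 0.38, adjusted p = 0.0215). The Otop1 call ended without knockout low fat replicate 3 or 4 or wild-type high fat replicate 2 or 4 (adjusted p = 0.0559 to 0.0793).

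The list's remaining calls were Cox7a1 (-1.93, SE 0.45, adjusted p = 0.0266), a muscle and brown fat form of a cytochrome oxidase subunit, and Elovl3 (-2.07), a fatty acid elongase induced in brown fat by cold. All Elovl3 values of wild-type high fat fat lay under 4, and its difference was -0.63 with values under 4 set to 4. The Cox7a1 call ended without any of wild-type high fat replicates 2, 3 and 4 and knockout low fat replicates 3 and 4 (adjusted p = 0.0546 to 0.091), and the Elovl3 call ended in 11 of 16 such fits. Prdm16 and Ppargc1a, a transcription factor and a co-activator of the thermogenic programme, differed by -0.38 and -0.62 without passing the threshold. With every probe set tested by itself, another set of Prdm16 gave -0.82 (limma adjusted p = 0.0121) and 1 of the other 4 sets of Ppargc1a gave -0.92 (adjusted p = 0.0493). Of the list, 3 genes were called without knockout low fat replicate 3 or without its replicate 4, and 4 without wild-type high fat replicate 2 or without its replicate 4. Without the 5 arrays with muscle transcripts 4 of 10 were called. In these bulk samples fewer cells of a type and less RNA per cell cannot be told apart.

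**Figure D2:**
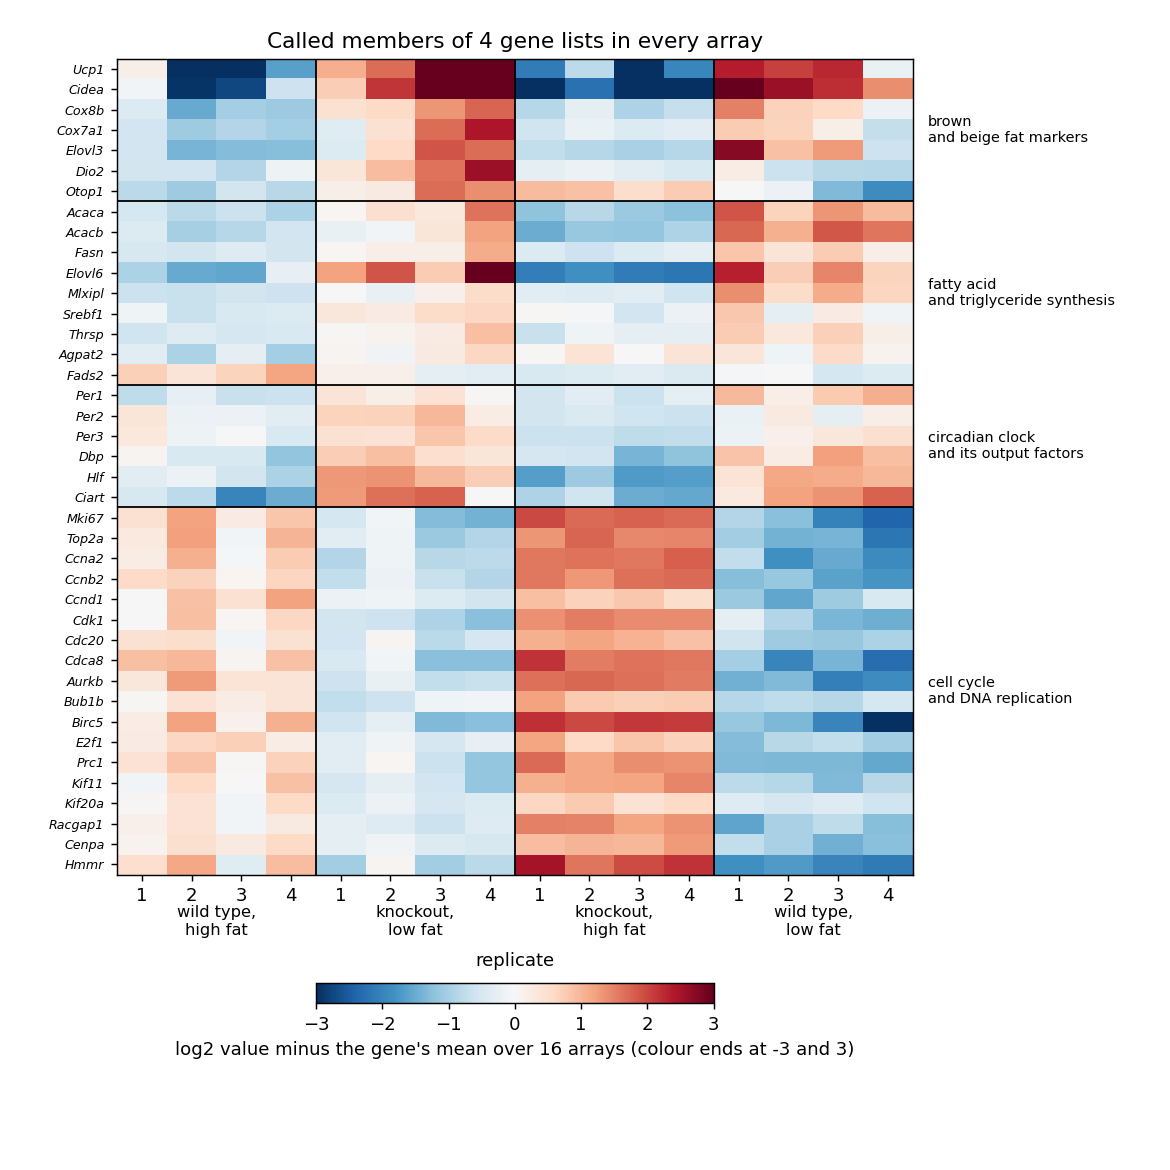
Colour shows the log2 value minus the gene's mean over all 16 arrays, for every called member of 4 gene lists (rows) in each array (columns, in the order wild-type high fat, knockout low fat, knockout high fat and wild-type low fat). Elovl3, a member of the brown and beige and the synthesis list, is drawn once. Knockout low fat replicates 3 and 4 hold the highest values of Ucp1, Cidea and Dio2, and Otop1 is high in both knockout groups.

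Fatty acid and triglyceride synthesis genes were lower in wild-type high fat fat in 9 of 27 tested (8 of 26 apart from Elovl3), against 2.06% of all genes, and Fads2 was higher, as were 2.24% of all genes. The median difference was -0.51, and 26 of the 27 differences lay below 0. With every probe set tested by itself, another set of the desaturase gene Scd1 gave -0.84 (limma adjusted p = 0.00586). The Scd1 set used here gave -0.12 (0.603). Elovl6, an elongase of long-chain fatty acids, was at 7.51, 6.96, 6.92 and 8.23 in wild-type high fat fat, against 9.67, 10.36, 9.22 and 11.87 in knockout low fat fat. Every knockout array was above every wild-type one, knockout replicate 4 by the most (difference -2.88, SE 0.48, adjusted p = 0.00434, called in all 16 fits with an array left out). Its second probe set with values gave -2.59. Acaca, the acetyl-CoA carboxylase of fatty acid synthesis, was at 10.19, 9.91, 10.07 and 9.77 in wild-type high fat fat, against 10.77, 11.19, 11.02 and 12.33 in knockout low fat fat. These groups did not overlap either (difference -1.34, SE 0.29, adjusted p = 0.0179), and the call ended without wild-type high fat replicate 2 (adjusted p = 0.0574) or 4 (0.056).

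The other lower synthesis genes covered regulators and enzymes. Mlxipl, which encodes the glucose-responsive factor ChREBP, fell by 0.74 on the log2 scale (SE 0.18, adjusted p = 0.0309), and Srebf1, the lipogenic factor SREBP-1, fell by 0.85 (SE 0.20, adjusted p = 0.0283). Fasn, fatty acid synthase, was at 11.33, 11.25, 11.42 and 11.26 in wild-type high fat fat, against 11.85, 11.99, 11.99 and 12.91 in knockout low fat fat (difference -0.87, SE 0.20, adjusted p = 0.0245). The 3 lower knockout values of Fasn lay together, and replicate 4 stood above them. Acacb (-1.03), Thrsp (-0.82) and Agpat2 (-0.87) were called as well. The knockout alone, on the low fat diet, gave -1.25 for Acacb (limma adjusted p = 0.00393), -0.59 for Acaca (0.166) and -0.00 for Agpat2 (0.992). These enzyme and regulator calls beyond Elovl6 were less stable: 1 synthesis gene was called as lower without wild-type high fat replicate 2 or without its replicate 4, 3 without knockout low fat replicate 3 or without its replicate 4, 4 without wild-type high fat replicate 3, and 2 without the arrays with muscle transcripts. Fads2, a desaturase of polyunsaturated fatty acids, went the other way, with 8.53, 8.21, 8.49 and 9.01 in wild-type high fat fat against 7.98, 7.97, 7.56 and 7.48 in knockout low fat fat (difference 0.82, SE 0.17, adjusted p = 0.0155, or 0.0604 without knockout low fat replicate 3). Another probe set of Fads2 gave 0.22 (adjusted p = 0.612).

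Among 28 genes of lipolysis and fatty acid oxidation 2 were lower, against 2.06% of all genes, and 0 higher, with a median of -0.19. They were Ppara, the nuclear receptor that drives oxidation genes (-1.55, SE 0.31, adjusted p = 0.012, with -1.36 and -0.82 in its other probe sets, adjusted p = 0.0504 and 0.126), and Acot4, a peroxisomal thioesterase (-1.54, SE 0.25, adjusted p = 0.00386). Acot4 was at 4.56, 4.39, 4.47 and 4.42 in wild-type high fat fat, against 5.32, 5.69, 6.31 and 6.68 in knockout low fat fat, and both groups lay under the wild-type low fat mean of 7.60 (SD 0.43). For Acot4 the knockout alone gave -1.60 (adjusted p = 0.000454) and the diet alone -3.14 (adjusted p = 5.48e-07), 2 comparisons that share the wild-type low fat arrays. Of 30 citric acid cycle and respiratory chain genes 0 passed, with 6 at an unadjusted p under 0.05, a level 19.7% of all genes reached (median -0.15). Of 23 genes of branched-chain amino acid breakdown 0 passed, with 5 at an unadjusted p under 0.05 (median -0.19).

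Clock genes followed. The circadian clock runs on a loop in which BMAL1 and CLOCK switch on Per and Cry genes from E-box sites, and PAR bZIP factors such as DBP and HLF bind D-box sites in output genes. Of 17 clock and output genes, 6 were lower in wild-type high fat fat, against 2.06% of all genes, and 0 higher, with a median of -0.36. The labels give no time of day of dissection. The promoters of 3 of the 6 are shown because they hold such a site, in capitals, within 250 bases before to 50 bases after the start site (RefSeq, GRCm38.p6). The Ciart promoter (chr3:95882179-95882478, minus strand) holds 3 copies of the E-box CACGTG, the Per1 promoter (chr11:69098699-69098998, plus strand) holds 1, and the Per3 promoter (chr4:151044616-151044915, minus strand) holds 2 copies of the D-box TTATGTAA.
Ciart: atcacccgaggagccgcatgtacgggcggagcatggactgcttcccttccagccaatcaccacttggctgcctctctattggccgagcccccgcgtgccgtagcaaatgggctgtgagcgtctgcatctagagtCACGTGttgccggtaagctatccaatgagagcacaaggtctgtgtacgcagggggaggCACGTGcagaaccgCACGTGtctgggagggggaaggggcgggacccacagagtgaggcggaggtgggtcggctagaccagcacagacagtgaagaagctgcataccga
Per1: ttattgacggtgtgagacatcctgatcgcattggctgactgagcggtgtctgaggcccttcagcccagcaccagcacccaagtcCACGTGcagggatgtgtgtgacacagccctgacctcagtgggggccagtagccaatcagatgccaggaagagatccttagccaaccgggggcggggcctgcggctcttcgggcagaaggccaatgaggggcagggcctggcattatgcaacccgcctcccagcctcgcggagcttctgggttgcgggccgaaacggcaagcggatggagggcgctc
Per3: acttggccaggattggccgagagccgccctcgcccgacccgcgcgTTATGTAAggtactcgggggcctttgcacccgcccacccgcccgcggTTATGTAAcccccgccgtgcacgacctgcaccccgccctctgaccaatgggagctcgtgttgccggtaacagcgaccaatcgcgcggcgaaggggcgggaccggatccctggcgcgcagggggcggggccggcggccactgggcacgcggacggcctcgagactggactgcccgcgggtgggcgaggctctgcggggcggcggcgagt
The table lists 6 promoters for 5 of the called clock genes, Per1 with 2 and Per2 with 0, and the second Per1 promoter holds neither motif. Counted on both strands, the E-box occurred in 2 of the 6 promoters listed for called clock genes (33.3%), in 3 of 14 of those not called (21.4%) and in 7.15% of all 32851 promoters. The D-box occurred in 1 of 6 (16.7%), in 0 of 14 and in 0.938% of all promoters. A match is a description of these letters and not of binding.

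Ciart, a repressor of the CLOCK and BMAL1 complex, was at 4.92, 4.62, 3.42 and 3.91 in wild-type high fat fat, against 6.69, 7.05, 7.17 and 5.43 in knockout low fat fat. The groups did not overlap (difference -2.37, SE 0.41, adjusted p = 0.00569), and wild-type low fat fat had a mean of 6.56 (SD 0.62). Hlf was at 6.77, 6.90, 6.53 and 6.13 in wild-type high fat fat, against 8.38, 8.43, 8.05 and 7.82 in knockout low fat fat, a narrow spread in both groups (difference -1.59, SE 0.21, adjusted p = 0.0015). Dbp differed by -1.13 (SE 0.27, adjusted p = 0.0283). The period genes Per1 (-0.84, adjusted p = 0.0175), Per2 (-0.72, adjusted p = 0.0351) and Per3 (-0.66, adjusted p = 0.0335) were lower as well, and the arrays of Per2 overlapped. The 3 other probe sets of Per3 gave -0.98 to -0.54 without passing (adjusted p = 0.121 to 0.347), and of the other 2 of Per2 1 passed (-0.77, adjusted p = 0.0301) and 1 did not (-0.61, adjusted p = 0.0512). The calls of Ciart and Hlf held with each of the 16 arrays left out. Those of Dbp, Per1, Per2 and Per3 each ended, among other arrays, without knockout low fat replicate 3 (adjusted p = 0.067 to 0.124) or wild-type high fat replicate 4 (0.052 to 0.106). With either of these arrays left out, 2 clock genes were called, and 3 without knockout low fat replicate 1 or wild-type high fat replicate 2 or 3, and 2 without the arrays with muscle transcripts. Nr1d1 (-0.69, adjusted p = 0.147) and Arntl, which encodes BMAL1 (1.03, adjusted p = 0.12), did not pass the threshold. Usp2, a ubiquitin protease whose transcript cycles with the clock and which was not on the list, was at 6.84, 6.25, 6.18 and 6.71 in wild-type high fat fat, against 7.91, 8.38, 9.42 and 8.95 in knockout low fat fat (difference -2.17, SE 0.31, adjusted p = 0.00241).

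Cell cycle genes rose. Of 36 tested, 18 were higher in wild-type high fat fat and 0 lower, against 2.24% higher among all genes, and the median difference was 0.72. The mean of the list per array ran between 6.24 and 6.90 in wild-type high fat fat and between 5.67 and 6.06 in knockout low fat fat. Many mitotic genes carry in their promoter a cell cycle homology region (CHR, TTTGAA), read by the DREAM and B-MYB complexes, with CCAAT boxes upstream that bind NF-Y. The promoters of Ccnb2 (chr9:70421505-70421804, minus strand), Cdk1 (chr10:69352863-69353162, minus strand) and Mki67 (chr7:135716330-135716629, minus strand) are shown as called members that hold both, with the motifs in capitals (RefSeq, GRCm38.p6).
Ccnb2: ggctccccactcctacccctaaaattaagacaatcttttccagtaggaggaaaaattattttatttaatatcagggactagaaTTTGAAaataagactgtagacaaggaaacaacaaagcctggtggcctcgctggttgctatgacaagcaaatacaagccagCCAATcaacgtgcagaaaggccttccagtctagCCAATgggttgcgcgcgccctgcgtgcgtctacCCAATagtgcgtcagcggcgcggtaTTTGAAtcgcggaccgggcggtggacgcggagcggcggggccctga
Cdk1: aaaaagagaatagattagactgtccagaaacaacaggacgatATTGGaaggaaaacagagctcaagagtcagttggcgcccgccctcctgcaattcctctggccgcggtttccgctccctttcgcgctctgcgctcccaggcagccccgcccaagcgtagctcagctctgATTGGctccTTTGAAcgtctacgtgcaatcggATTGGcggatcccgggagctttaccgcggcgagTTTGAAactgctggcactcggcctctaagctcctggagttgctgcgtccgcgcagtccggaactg
Mki67: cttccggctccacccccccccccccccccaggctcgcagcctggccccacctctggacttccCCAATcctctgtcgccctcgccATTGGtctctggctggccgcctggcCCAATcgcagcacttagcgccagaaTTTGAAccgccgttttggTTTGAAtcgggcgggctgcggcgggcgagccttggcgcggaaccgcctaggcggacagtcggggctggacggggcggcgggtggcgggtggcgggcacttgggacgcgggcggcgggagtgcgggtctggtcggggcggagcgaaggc
The CHR letters, searched on both strands, were in 13 of 15 promoters listed for called cell cycle genes (86.7%), which belong to 14 of the 18 called genes and count Prc1 with 2, in 4 of 17 promoters of members not called (23.5%) and in 17.9% of all promoters. CCAAT was in 86.7%, 76.5% and 37.4% of them. These shares describe the lists and were not tested.

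Ccnb2, a cyclin of mitosis, was at 4.81, 4.93, 4.32 and 4.89 in wild-type high fat fat, against 3.50, 4.07, 3.58 and 3.38 in knockout low fat fat (difference 1.10, SE 0.18, adjusted p = 0.00434, or 0.72 with values under 4 set to 4). Aurkb, a mitotic kinase, was at 5.83, 6.76, 5.89 and 5.88 in wild-type high fat fat, against 4.86, 5.27, 4.75 and 4.82 in knockout low fat fat (difference 1.17, SE 0.20, adjusted p = 0.00637). Neither gene overlapped between the groups, and both calls held with each of the 16 arrays left out. Cdk1, the kinase that starts mitosis, differed by 1.23 (SE 0.25, adjusted p = 0.0131) and Mki67, a marker of dividing cells, by 1.52 (SE 0.33, adjusted p = 0.0179). The knockout alone, on the low fat diet, gave 1.11 for Aurkb (limma adjusted p = 0.00158) and 0.16 for Cdk1 (0.693). For Ccnb2 it gave 0.83 (0.00534), between means of 3.63 and 2.80. The Cdk1 call ended without wild-type high fat replicate 2 (adjusted p = 0.0506), and that of Mki67 without wild-type high fat replicate 2 or 4 or knockout low fat replicate 3 or 4 (0.0534 to 0.0692). Without knockout low fat replicate 3, 4 cell cycle genes were called, and without its replicate 4, 7. Without wild-type high fat replicates 2 and 4 in turn the counts were 2 and 5, without the arrays with muscle transcripts 14, and with the 8 arrays fitted alone 10. In the other 2 groups the list averaged 7.40 to 7.67 per array in knockout high fat fat and 5.09 to 5.49 in wild-type low fat fat, values above and below those of the groups compared. The cells that carried these transcripts cannot be named from bulk RNA.

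**Figure D3:**
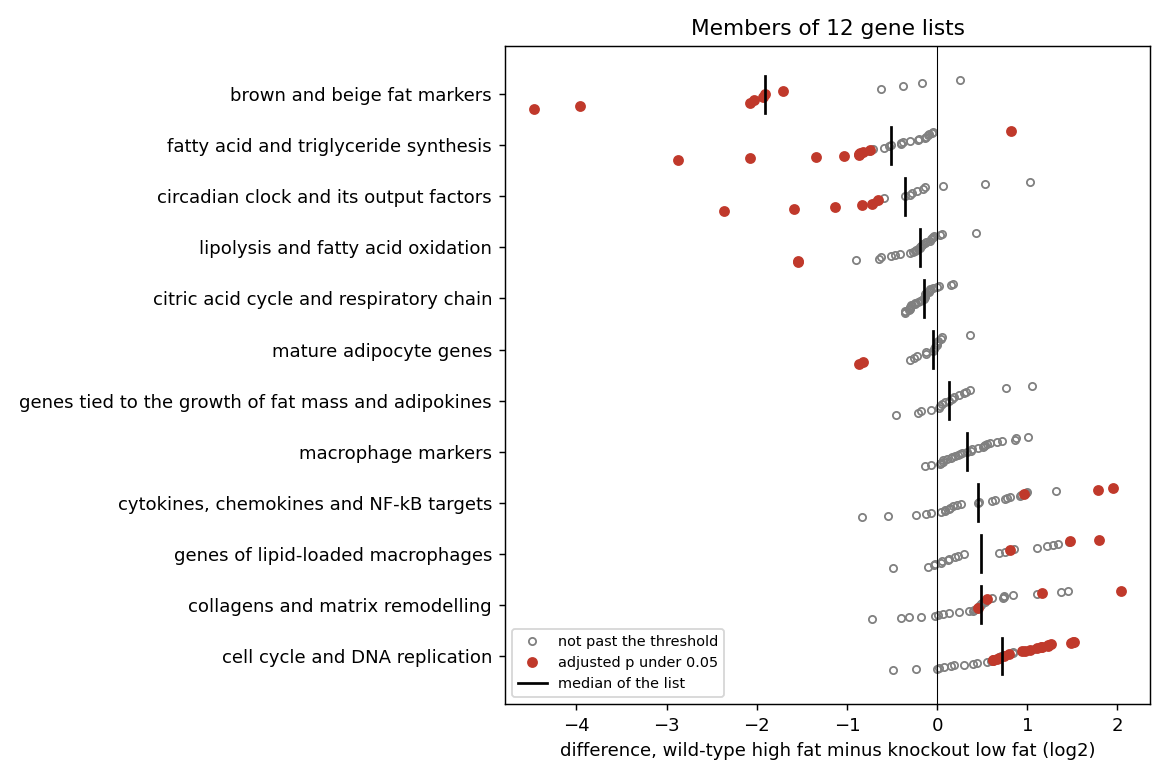
Difference of each tested member of 12 gene lists (points), wild-type high fat minus knockout low fat on the log2 scale (x axis). Filled red points passed an adjusted p of 0.05, open ones did not, and black bars are list medians. The cell cycle median is 0.72, and the brown and beige list is drawn with Dio2 and Elovl3.

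Immune genes were examined next. Of 27 macrophage markers limma called 0 in either direction, with 11 at an unadjusted p under 0.05, against 19.7% of all genes (median 0.33). Among them, the macrophage surface marker Adgre1 was at 10.53, 10.79, 10.55 and 10.80 in wild-type high fat fat and at 10.70, 10.71, 10.43 and 9.88 in knockout low fat fat. The Adgre1 groups overlapped (difference 0.24, 95% confidence interval -0.21 to 0.68, adjusted p = 0.594). Cd68 differed by 0.87 (0.12 to 1.62, adjusted p = 0.18). Of 28 cytokine, chemokine and NF-kB genes 3 were higher (2 of 27 apart from Cx3cr1), against 2.24% of all genes (median 0.46): the monocyte attractants Ccl7 and Ccl2, and Cx3cr1, the receptor of fractalkine on monocytes and macrophages. All Cx3cr1 values of knockout low fat fat lay under 4, and its difference was 0.96, or 0.52 with values under 4 set to 4. Ccl7 was at 4.52, 6.35, 5.67 and 5.71 in wild-type high fat fat, against 4.26, 4.03, 3.06 and 3.09 in knockout low fat fat (difference 1.96, SE 0.36, adjusted p = 0.00885), a call that held with each array left out. Ccl2 was at 5.72, 8.24, 7.20 and 7.48 in wild-type high fat fat, against 5.83, 5.49, 5.26 and 4.95 in knockout low fat fat. Wild-type high fat replicate 1 lay within the Ccl2 values of the knockout and the other 3 above them (difference 1.78, SE 0.38, adjusted p = 0.0175). That call was lost without knockout low fat replicate 3 or 4 or wild-type high fat replicate 2 or 4 (adjusted p = 0.0535 to 0.0572).

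Of 22 genes of lipid-loaded macrophages, 3 were higher, against 2.24% of all genes (median 0.49): Slc37a2, Trem2 and Ctsk. Trem2, a lipid-sensing macrophage receptor, was at 6.12, 8.08, 5.86 and 7.89 in wild-type high fat fat, against 5.66, 5.84, 5.23 and 5.31 in knockout low fat fat. Wild-type high fat replicates 2 and 4 were over 1.5 above replicates 1 and 3, which lay just above the knockout arrays (difference 1.48, SE 0.39, adjusted p = 0.0422). Slc37a2, a sugar phosphate transporter of macrophages, split the same way, with 6.08, 8.28, 6.34 and 8.17 in wild-type high fat fat against 5.48, 5.69, 5.13 and 5.40 in knockout low fat fat (difference 1.79, SE 0.39, adjusted p = 0.0187). The Trem2 call ended in 10 of 16 fits with an array left out, and that of Ctsk, a cathepsin gene (0.81, adjusted p = 0.0459), in 9. That of Slc37a2 ended without knockout low fat replicate 3 or wild-type high fat replicate 2 or 4 (adjusted p = 0.0591 to 0.067). Without wild-type high fat replicate 1, 10 genes of this list, 6 cytokine genes and 3 macrophage markers were called as higher, and without its replicate 4, 0 genes of this list. In knockout high fat fat Trem2 averaged 10.20 (SD 0.25) and in wild-type low fat fat 4.85 (SD 0.15).

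Matrix genes were higher in 4 of 34 tested, against 2.24% of all genes, and lower in 0, with a median of 0.48. Tnc, the matrix protein tenascin-C of remodelling tissue, was at 6.97, 7.55, 7.53 and 8.40 in wild-type high fat fat, against 6.35, 5.84, 5.43 and 4.65 in knockout low fat fat (difference 2.04, SE 0.35, adjusted p = 0.00569). Mmp3, the protease stromelysin-1, was at 8.61, 8.84, 8.61 and 8.48 in wild-type high fat fat, against 7.45, 7.59, 7.86 and 7.01 in knockout low fat fat (difference 1.16, SE 0.15, adjusted p = 0.00137). Both had no overlap and held with each array left out. The collagen genes called, Col6a1 (0.45, adjusted p = 0.0309) and Col1a2 (0.56, adjusted p = 0.0479), were less firm: Col6a1 was lost without knockout low fat replicate 1, 3 or 4 or wild-type high fat replicate 2, 3 or 4 (adjusted p = 0.0558 to 0.114), and Col1a2 in 12 of 16 fits. The Col1a2 groups overlapped, and its other probe sets gave 0.70 and -0.04 (limma adjusted p = 0.102 and 0.92). Of 24 endothelial markers 2 were higher, against 2.24% of all genes: Cldn5, a tight junction claudin (1.03, SE 0.15, adjusted p = 0.00299), and Aplnr, the apelin receptor (1.03, SE 0.20, adjusted p = 0.0106). The list's median was 0.24, with 17 differences above 0 and 7 below. The lowest was that of Flt1 (-0.84, limma adjusted p = 0.0665).

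Several of the largest single differences fell outside these groups. Gpr50, an orphan receptor related to melatonin receptors on the X chromosome, was at 3.07, 7.83, 7.28 and 7.54 in wild-type high fat fat, against 2.56, 1.69, 2.17 and 2.13 in knockout low fat fat. Wild-type high fat replicate 1 stood far below the other 3, near the knockout arrays (difference 4.29, SE 0.74, adjusted p = 0.00582). With values under 4 set to 4 the difference was 2.66. Plau, the urokinase plasminogen activator, was at 6.47, 8.73, 9.06 and 7.76 in wild-type high fat fat, against 3.87, 3.50, 4.75 and 3.06 in knockout low fat fat (difference 4.21, SE 1.02, adjusted p = 0.03). The groups were far apart, but Plau was uneven in the other 2 groups, with an SD of 1.96 in knockout high fat fat and 2.30 in wild-type low fat fat. Its call ended without any 1 of the 4 knockout low fat arrays or of wild-type high fat replicates 2 to 4 (adjusted p = 0.0549 to 0.0938), and its other probe set gave 1.52.

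Ubd, a ubiquitin-like modifier induced by cytokines, was at 9.60, 10.96, 11.19 and 11.25 in wild-type high fat fat, against 9.02, 7.97, 6.91 and 6.85 in knockout low fat fat (difference 3.06, SE 0.48, adjusted p = 0.00334). Ddah1, which breaks down an inhibitor of nitric oxide synthase, differed by 2.0 (SE 0.31, adjusted p = 0.00334). Hhex, a homeobox factor, was at 8.41, 8.34, 8.51 and 8.37 in wild-type high fat fat, against 6.69, 6.83, 6.07 and 7.07 in knockout low fat fat (difference 1.74, SE 0.21, adjusted p = 0.00102). Its SD was 0.07 in wild-type high fat fat and 0.43 in knockout low fat fat. Egr2, an immediate early factor, differed by 1.75 (SE 0.37, adjusted p = 0.0157, or 0.0608 without wild-type high fat replicate 2). For Ddah1 and Egr2 both groups lay above the wild-type low fat means of 4.22 and 6.01. The knockout alone, on the low fat diet, gave 1.39 for Ddah1 (limma adjusted p = 0.00573) and 1.69 for Egr2 (0.00486). Among the falls, Sh2b2, an adaptor of insulin receptor signalling, differed by -2.0 (SE 0.36, adjusted p = 0.00777). Pon1, a lipoprotein-bound paraoxonase, was at 5.60, 4.07, 4.58 and 4.68 in wild-type high fat fat, against 5.94, 6.86, 6.71 and 7.72 in knockout low fat fat (difference -2.07, SE 0.40, adjusted p = 0.00997). Both groups lay under the wild-type low fat mean of 8.01 (SD 0.65). Hsd11b1, which regenerates active glucocorticoid in fat, was at 11.65, 12.06, 11.82 and 11.67 in wild-type high fat fat, against 12.68, 12.51, 12.60 and 12.77 in knockout low fat fat (difference -0.84, SE 0.12, adjusted p = 0.00296). The calls of Gpr50, Ubd, Ddah1, Hhex, Sh2b2, Pon1 and Hsd11b1 held with each array left out.

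The remaining groups, knockout high fat and wild-type low fat, form a comparison that shares no array with the first. Both comparisons come from the same fit and share each gene's estimate of spread, so their calls are not independent. There 5638 genes (46.7%) were called, 25.5% higher and 21.2% lower in knockout high fat fat. Of the 519 genes, 402 (77.5%) passed the threshold in the same direction, 220 higher and 182 lower, 18 (3.47%) in the opposite direction, and 99 did not pass. For the 402, the median absolute difference was 0.858 between wild-type high fat and knockout low fat fat, and 1.5 between knockout high fat and wild-type low fat fat. It was larger in the second comparison for 324 of them. In the same comparison 34 of 36 cell cycle genes were higher, with a median of 2.16, and of the 11 brown and beige genes 5 were lower and 2 higher.

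**Figure D4:**
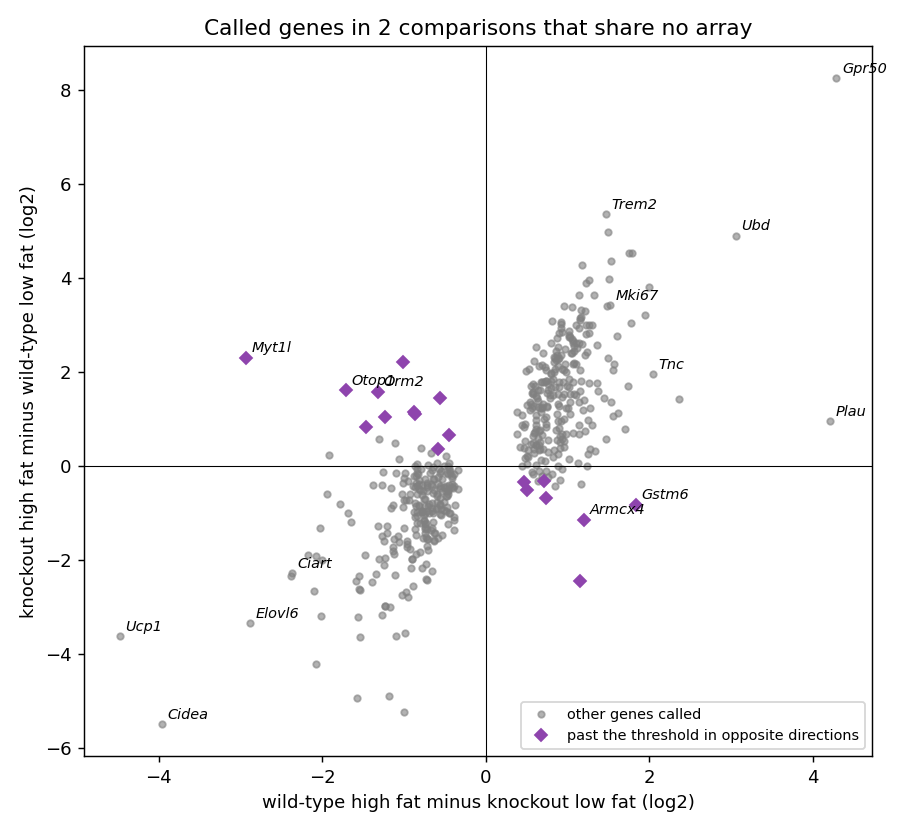
Each point is 1 of the 519 genes called between wild-type high fat and knockout low fat fat, at that log2 difference (x axis) and at its difference between knockout high fat and wild-type low fat fat (y axis). Grey circles are genes in the same direction or not called on the y axis, and the 18 purple diamonds passed the threshold in opposite directions, such as Myt1l and Armcx4.

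The 18 genes with opposite directions included some that were high, or low, in both knockout groups. Myt1l, a zinc finger factor known from neurons, on chromosome 12, had the smallest p of all genes tested. It was at 1.96, 2.22, 2.23 and 2.33 in wild-type high fat fat, against 6.05, 4.95, 4.84 and 4.59 in knockout low fat fat (difference -2.92, SE 0.25, adjusted p = 3.32e-05, or -1.11 with values under 4 set to 4). It averaged 4.59 (SD 0.36) in knockout high fat fat and 2.29 (SD 0.19) in wild-type low fat fat, high in both knockout groups and low in both wild-type groups. A second Myt1l probe set gave -2.44 (adjusted p = 2.64e-05). Orm2, an acute phase orosomucoid gene, was at 7.11, 7.58, 7.44 and 7.22 in wild-type high fat fat, against 8.96, 8.85, 8.10 and 8.72 in knockout low fat fat (difference -1.32, SE 0.18, adjusted p = 0.00212). Its means were 8.52 in knockout high fat fat and 6.94 in wild-type low fat fat. The related Orm3 was also lower in wild-type high fat fat (-2.10, SE 0.29, adjusted p = 0.00222), but averaged 5.11 in knockout high fat fat against 7.77 in wild-type low fat fat. Orosomucoid genes are close copies, and how far their probe sets read each other's transcripts was not tested.

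Adamtsl2, a microfibril-binding matrix protein gene, differed by -1.46 (SE 0.28, adjusted p = 0.00985), with means of 5.15 in knockout high fat fat and 4.32 in wild-type low fat fat. Trabd2b (-0.86, adjusted p = 0.0103, with -0.75 and adjusted p = 0.0589 in another probe set), a metalloprotease gene that acts on Wnt proteins, and the mitochondrial transcription gene Mterf2 (-0.59, adjusted p = 0.0139) also belonged here. Of the 7 in the other direction, Armcx4, on the X chromosome, was at 7.65, 7.01, 6.84 and 7.12 in wild-type high fat fat, against 6.11, 5.86, 5.92 and 5.93 in knockout low fat fat (difference 1.20, SE 0.20, adjusted p = 0.00389). Its means were 6.38 in knockout high fat fat and 7.52 in wild-type low fat fat, lower in both knockout groups. Htatsf1, an RNA processing factor gene, differed by 0.72 (adjusted p = 0.00572) and averaged 9.46 in knockout high fat fat and 9.79 in wild-type low fat fat, again with both knockout groups below both wild-type groups. Its other probe sets gave 0.20 and 0.32 (adjusted p = 0.561 and 0.159). Gstm6, a glutathione transferase, was at 4.60, 5.97, 5.45 and 4.77 in wild-type high fat fat, against 3.28, 3.18, 3.71 and 3.27 in knockout low fat fat (difference 1.84, or 1.20 with values under 4 set to 4). It passed the filter mainly through the wild-type high fat arrays, so no test is given. Gstm6 averaged 3.03 in knockout high fat fat and 3.86 in wild-type low fat fat, so that wild-type high fat fat had the highest of the 4 group means. Both knockout means lay under both wild-type means, but only the wild-type high fat mean was above 4. Ptch1, the hedgehog receptor, differed by 0.50 (adjusted p = 0.0268) and Papss1, a sulphate donor enzyme, by 0.74 (adjusted p = 0.0281). The Ptch1 and Papss1 calls were lost without knockout low fat replicate 3 (adjusted p = 0.0892 and 0.0928) and without wild-type high fat replicate 2 (0.0704 and 0.0996), as they did without further arrays of these 2 groups. The Mterf2 call ended without wild-type high fat replicate 2 (adjusted p = 0.0576) or 4 (0.0511).

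Of 17 genes that mark expanding fat pads limma called 0, with 3 at an unadjusted p under 0.05 and a median of 0.13. Mest, which rises as adipocytes enlarge, was at 12.40, 12.70, 12.76 and 12.62 in wild-type high fat fat and at 12.53, 12.35, 11.99 and 12.14 in knockout low fat fat. These arrays overlapped (difference 0.36, 95% confidence interval 0.01 to 0.72, adjusted p = 0.241), while the wild-type low fat mean was 9.26 (SD 0.37). Lep, the leptin gene, was at 12.89, 13.22, 13.30 and 13.16 in wild-type high fat fat and at 12.71, 12.77, 12.80 and 12.98 in knockout low fat fat. Its difference was 0.33 (95% confidence interval -0.02 to 0.68, adjusted p = 0.288), with a wild-type low fat mean of 11.65 (SD 0.37). Sfrp5, a secreted Wnt inhibitor, was at 11.68, 12.14, 12.14 and 12.07 in wild-type high fat fat and at 11.77, 11.16, 11.45 and 10.57 in knockout low fat fat (difference 0.77, 95% confidence interval 0.32 to 1.22, adjusted p = 0.0526), with a wild-type low fat mean of 7.0 (SD 0.30). Sfrp5 was called in 4 of 16 fits with an array left out, and its other probe set gave 1.43 (adjusted p = 0.0078). Pparg, the master factor of adipocytes, differed by -0.26 (95% confidence interval -0.58 to 0.07, adjusted p = 0.377), and Adipoq by -0.03 (-0.23 to 0.16, adjusted p = 0.888). A p that misses the threshold does not show that these levels were alike.

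The next lists had 1 to 3 calls each, against 4.3% of all genes. Of 19 sirtuin and NAD genes, Nmnat3, a gene of mitochondrial NAD synthesis (-0.86, adjusted p = 0.0272), and Nmrk1, a nicotinamide riboside kinase gene (-0.56, adjusted p = 0.0336), were lower, each lost in several fits with an array left out (adjusted p up to 0.0913 and 0.0934). Other probe sets of Nmrk1 gave -0.27 and -0.12 (adjusted p = 0.261 and 0.787). Of 23 prostaglandin and leukotriene genes 2 were higher and 1 lower, with the prostacyclin receptor gene Ptgir at 0.88 (SE 0.18, adjusted p = 0.0147). Of 32 antioxidant genes Gstm6 alone was called, a call that depends on the filter, and apart from it 0 of 31 were. Of 28 endoplasmic reticulum genes the call was Manf, a stress-induced secreted factor (1.07, SE 0.17, adjusted p = 0.00386), and of 13 MHC class II genes Ciita, their transactivator (0.82, SE 0.15, adjusted p = 0.00809). Of 23 insulin and glucose genes, Hk2, a hexokinase gene, was lower (-0.56, adjusted p = 0.0391), a call lost in 8 of 16 fits. In 16 mature adipocyte genes the calls were Fasn and Thrsp, both lower, and the list's median was -0.04.

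Other lists had 0 calls by limma. With the number at an unadjusted p under 0.05 in each case, against 2380 of 12078 (19.7%) over all genes, these were cholesterol synthesis (0 of 15), Wnt genes (6 of 23), caspases and the inflammasome (5 of 17), interferon response (4 of 25), lymphocyte markers (4 of 19), neutrophil, eosinophil and mast cell genes (3 of 12), stromal and progenitor markers (4 of 22) and mesothelial markers (1 of 18). These counts use 1 probe set per gene. With every probe set tested by itself, another set of the lymphocyte marker Ighm gave 3.85 (limma adjusted p = 0.0214), while its remaining sets did not pass. Another set of the cholesterol gene Srebf2 gave 0.62 (adjusted p = 0.0327). Of 2 epithelial genes above the filter, the claudin gene Cldn1 was lower (-1.57, adjusted p = 0.0373), a call that held in 9 of 16 fits with an array left out (adjusted p up to 0.124).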

How the data were processed

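Total RNA of white adipose tissue was hybridized to 16 Affymetrix mouse arrays. Per the submitters' processing notes, the authors used R 2.11.1 and GCRMA 2.20.0, and they deposited normalized log2 values for each probe set. Scan dates and batch handling: not given in the sources used here. GCRMA estimates background from probe sequence, so values near the floor (0.594 was the lowest) carry little information on order. Array medians lay between 4.344 and 4.462, and no arrays were identical. The number of arrays limits the precision.

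The probe table gave 1 symbol for 34945 of 45037 probe sets, several for 932 and no symbol for 9160. The probe set with the highest mean over 16 arrays stood for each of 18193 genes. Only the 12078 genes that reached log2 4 in at least 4 arrays entered the fit. Limma 3.58.1 in R 4.3.3 fitted 1 mean per group to all 16 arrays (12 residual and 3.84 prior degrees of freedom), with two-sided moderated tests. The script was tested on simulated data.

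Genes named were Sirt1, the 12 largest called differences without overlap in each direction, up to 4 called members of each of 39 lists with the smallest p (and up to 2 members not called, for lists with under 4 calls), and up to 5 genes in each direction that passed with opposite sign between knockout high fat and wild-type low fat fat. Not every one is printed. The rule named 135 genes, and a further 48, among them Otop1, Per2 and Per3, were chosen after their values were seen. The members and lists were chosen with earlier results of these data known. Of 990 list entries 801 were tested. Promoters came from RefSeq, GRCm38.p6. Same-numbered arrays of the groups compared correlated, as deviations from group means, at 0.0932, -0.292, -0.101 and 0.0968, so the number did not pair them. Alternatives changed the filter, scaling, variance model, probe sets, arrays and threshold.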

Additional observations from a re-analysis of the deposited data

Results flagged for a closer look

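Among 162 groups of 4 arrays examined for the genes reported, 7 had 1 array far from the other 3 (a gap over Dixon's 95% critical value), where chance gives about 1 in 20. The number flagged is thus not above what chance gives, and the arrays are listed as a description. In wild-type high fat fat, replicate 1 was apart for 3 genes: Gpr50 at 3.07 against 7.28 to 7.83 in the others, Elovl3 at 2.88 against 2.07 to 2.17, and Sfrp5 at 11.68 against 12.07 to 12.14. Replicate 2 of that group was apart for Aurkb, at 6.76 against 5.83 to 5.89. In knockout low fat fat, replicate 4 was apart for Fasn, at 12.91 against 11.85 to 11.99, and for Trabd2b, at 8.49 against 8.09 to 8.13. Replicate 2 of that group was apart for Nmnat3, at 8.27 against 8.69 to 8.77. No cause was tested.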

How the results depend on the processing

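Against the 519 genes called (270 higher, 249 lower, 171 at least 2-fold), array weights gave 1642 (915 and 727), testing every probe set 960 (437 and 523, with 305 at least 2-fold), and an adjusted p of 0.01 gave 102 (46 and 56, with 73 at least 2-fold). Without the 5 arrays with muscle transcripts 237 were called (146 and 91), and without wild-type high fat replicates 1 and 4 together, chosen after seeing the data, 174 (99 and 75). Leaving out each array in turn gave 180 to 677 calls (93 to 414 higher, 85 to 284 lower, 87 to 268 at least 2-fold). The same fits gave 3 to 7 lower brown and beige genes, 1 to 10 lower synthesis genes, 2 to 7 lower clock genes, 2 to 20 higher cell cycle genes, and a Sirt1 difference of -0.37 to -0.21. Of these 4 lists in that order, 4, 2, 2 and 14 genes were called without the arrays with muscle transcripts, 4, 1, 2 and 2 without wild-type high fat replicates 1 and 4, and 4, 1, 2 and 2 at an adjusted p of 0.01. Where they were called, Dio2 and Elovl3 are in the brown and beige counts, and Elovl3 in the synthesis counts. Without any 1 of the knockout low fat arrays Dio2 did not pass the filter and was not fitted. The 8 arrays fitted alone called 10 cell cycle genes. The causes of these changes were not tested, beyond fewer arrays and a stricter threshold. The fit with the replicate number as a block called 421 (216 higher, 205 lower), and the numbers did not pair the arrays. The filter, the floor, the variance trend, scaling, the muscle signal as a covariate and the mean of probe sets gave 429 to 622 calls. Scaling by median or quantiles put 47.3% and 45.9% of calls in the higher direction, against 52%. None of the results followed reversed under an alternative. Of the 519 calls, 3 did not keep their sign with values under 4 set to 4, where a difference of 0 counts as not kept. With the mean of probe sets 2 of 489 did not keep it. Signal near the floor limits genes such as Elovl3, Dio2 and Myt1l.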
